A study of Mus musculus with 12 samples.

Results

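The H3K36ac peaks of mouse chromosomes 4, 10, 13 and 14 were examined in 6 chromatin immunoprecipitation libraries from liver tumours. All rows of the 6 deposited peak lists on these 4 chromosomes were taken, whatever their score, which gave 14978 of 109597 peaks. The 4 chromosomes were selected on their number of peaks per megabase (Mb) in these same lists, which was low, so their low density is described here and not tested. Tests compare the genotypes only. Tumours came from 3 mice with the LysM-Cre genotype, in which Cre is driven from a gene of macrophages and granulocytes, and from 3 Trem2-MKO mice, which lack Trem2 in myeloid cells. All 6 mice had received anti-PD-1 treatment, and the labels give no age, strain or tumour model. Whole tumour tissue was used, so a peak cannot be assigned to tumour cells, hepatocytes or infiltrating immune cells. A further 6 input libraries were not analysed here.

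Acetylation of lysine 36 on histone H3 is found mainly near the starts of active genes, whereas methylation of the same residue marks the bodies of transcribed genes. TREM2 is a lipid-sensing receptor of myeloid cells, present on many tumour-associated macrophages, and PD-1 is an inhibitory receptor of T cells that therapeutic antibodies block. Peak density along a chromosome depends on where the mark lies, on how much DNA of each segment was in the sample, and on how deeply and evenly the libraries were sequenced. The mouse counterparts of several human tumour suppressor genes lie on these 4 chromosomes, among them Cdkn2a and Arid1a on chromosome 4, Stk11 on chromosome 10 and Rb1 and Bap1 on chromosome 14.

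The LysM-Cre libraries held 2716, 4373 and 1362 peaks on the 4 chromosomes for replicates 1 to 3, of 18262, 29970 and 19981 in all. The Trem2-MKO libraries held 4625, 760 and 1142, of 29906, 6840 and 4638. Peaks were shallow in every list. The number of fragments at each summit was recovered from the authors' fold over background and p-value, and its median on the 4 chromosomes was 11 fragments in 4 libraries. Replicates 2 and 3 of Trem2-MKO had medians of 20 and 23. Over all autosomes, Trem2-MKO replicate 3 stood apart from the other libraries. Its profile over 472 autosomal bins of 5 Mb had Spearman correlations between -0.14 and 0.07 with the other 5 libraries, which correlated with each other at 0.71 to 0.81. Over the 102 bins of the 4 chromosomes alone, its correlations were 0.035 to 0.244. Those among the other 5 libraries were 0.065 to 0.439 there, so bin profiles within the 4 chromosomes agreed little between any libraries. These bins share library depth and gene content and are not independent. Results are therefore given with and without that library.

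Some gene starts on the 4 chromosomes overlapped peaks in more than 1 library, and the bases before 6 of these starts are shown first. The bases shown need not lie under the peak. The summits of Zup1, Kctd6 and Ado lay past the start, outside the bases shown. In Lgals3, Tal1 and Mfap2 the summit of 1 library lay within them. Kctd6 and Mfap2 each had a further start overlapped by the same peaks, which is not shown. Relative to it, the summits lay at -307 and -238 bases in Kctd6 and at 294 and 166 in Mfap2. Of 6587 promoter windows on the 4 chromosomes, taken from RefSeq (GRCm38.p6) as the 250 bases before to 50 bases after a start, 224 windows of 207 genes overlapped a peak in at least 1 library. By library the share of windows with a peak was 0.774%, 1.15% and 0.744% in LysM-Cre and 0.501%, 0.288% and 0.243% in Trem2-MKO. On the other autosomes it was 0.770%, 1.16% and 1.46% in LysM-Cre and 1.07%, 0.540% and 0.157% in Trem2-MKO. Only 19 windows of 15 genes overlapped a peak in 2 or more libraries. The 250 bases before the start of 6 of these genes, picked after their values were seen, are printed 5′ to 3′ on the strand of the gene, with CG dinucleotides in capitals. Kctd6 and Mfap2 lie in 2 of the sparsest 5 Mb bins, Zup1 was called in every Trem2-MKO library, and Lgals3, Tal1 and Ado were called in LysM-Cre libraries.
Zup1 (chr10:33951260-33951509, minus strand): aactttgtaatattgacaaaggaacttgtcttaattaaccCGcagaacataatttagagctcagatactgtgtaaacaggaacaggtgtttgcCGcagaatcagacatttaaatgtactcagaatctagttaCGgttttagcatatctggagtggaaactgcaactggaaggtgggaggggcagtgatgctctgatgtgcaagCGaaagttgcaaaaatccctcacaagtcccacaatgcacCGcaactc
Kctd6 (chr14:8213831-8214080, plus strand): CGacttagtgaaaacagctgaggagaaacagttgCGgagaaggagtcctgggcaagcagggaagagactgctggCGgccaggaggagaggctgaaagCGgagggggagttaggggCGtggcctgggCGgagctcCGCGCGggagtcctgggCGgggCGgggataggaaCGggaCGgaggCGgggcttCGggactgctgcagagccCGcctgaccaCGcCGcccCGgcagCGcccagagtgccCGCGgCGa
Mfap2 (chr4:141010431-141010680, plus strand): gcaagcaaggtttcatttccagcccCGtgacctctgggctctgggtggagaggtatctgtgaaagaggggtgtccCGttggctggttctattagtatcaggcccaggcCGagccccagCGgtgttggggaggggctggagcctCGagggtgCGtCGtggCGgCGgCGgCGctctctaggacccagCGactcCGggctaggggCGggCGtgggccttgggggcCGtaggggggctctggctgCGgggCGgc
Lgals3 (chr14:47373610-47373859, plus strand): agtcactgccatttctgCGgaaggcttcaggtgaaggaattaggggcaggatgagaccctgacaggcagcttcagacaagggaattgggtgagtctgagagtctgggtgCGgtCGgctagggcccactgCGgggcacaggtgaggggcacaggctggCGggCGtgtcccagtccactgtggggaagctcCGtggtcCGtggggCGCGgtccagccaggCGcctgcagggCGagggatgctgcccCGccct
Tal1 (chr4:115057561-115057810, plus strand): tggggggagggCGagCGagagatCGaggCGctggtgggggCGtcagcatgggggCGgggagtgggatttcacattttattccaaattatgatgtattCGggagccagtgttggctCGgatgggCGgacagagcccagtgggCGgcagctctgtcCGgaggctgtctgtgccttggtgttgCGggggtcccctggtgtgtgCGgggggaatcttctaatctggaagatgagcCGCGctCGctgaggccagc
Ado (chr10:67548956-67549205, minus strand): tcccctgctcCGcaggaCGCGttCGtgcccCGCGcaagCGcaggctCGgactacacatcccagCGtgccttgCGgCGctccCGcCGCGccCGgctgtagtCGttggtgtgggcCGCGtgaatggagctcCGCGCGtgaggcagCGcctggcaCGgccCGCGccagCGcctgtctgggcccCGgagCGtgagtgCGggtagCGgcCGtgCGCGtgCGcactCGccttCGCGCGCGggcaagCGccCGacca

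These sequences ranged from 5 CG dinucleotides in Zup1 to 41 in Ado, with 13 in Lgals3, 16 in Tal1, 18 in Mfap2 and 23 in Kctd6. The same bases before the further starts of Kctd6 and Mfap2, not shown, held 46 and 5. The median over the same 250 bases of all promoters of the 4 chromosomes was 5, over the 224 windows with a peak it was 13, and over the 19 windows with a peak in 2 or more libraries it was 16. The GC box GGGCGG, searched in these 250 bases on both strands and thus also as CCGCCC, was in 31.9% of the promoters of the 4 chromosomes and in 32.7% of the 32851 promoters of the whole table. It was in 46.9% of the 224 windows and in 10 of the 19. The TATA element TATAAA, searched with its reverse complement TTTATA, was in 12.3% of the promoters of the 4 chromosomes, in 12.1% of the 224 and in none of the 19. These are matches of letters in a window and no sign of binding.

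Zup1 encodes a deubiquitinase of long ubiquitin chains. Its peak had folds over background of 4.47, 3.02 and 3.21 in Trem2-MKO replicates 1, 2 and 3, from 18, 29 and 35 summit fragments, with summits 151, 297 and 250 bases into the gene. No LysM-Cre library had a peak there. Lgals3 encodes galectin-3, a sugar-binding protein abundant in macrophages, and had folds of 4.86 and 5.61 in LysM-Cre replicates 2 and 3, from 17 and 18 fragments, with none in the other 4 libraries. Tal1, a transcription factor of blood cell development, had folds of 4.07 and 2.28 in LysM-Cre replicates 1 and 3. Ado, a thiol dioxygenase, had folds of 2.11 and 2.99 in LysM-Cre replicates 1 and 2. Mfap2, a component of extracellular microfibrils, had folds of 4.17 and 3.58 in LysM-Cre replicates 2 and 3. Kctd6, an adaptor of a ubiquitin ligase, had folds of 1.60 and 2.45 in Trem2-MKO replicates 2 and 3. These 6 genes were picked among others for calls within 1 genotype, so no test was run on them. Of all 15 genes, 9 were called in LysM-Cre alone, 4 in Trem2-MKO alone and 2, Vps41 and Zfyve16, in 1 library of each genotype. Of all regions of the 4 chromosomes called in 2 libraries, 145 were in LysM-Cre alone, 84 in Trem2-MKO alone and 227 in 1 of each. The other 9 genes with a start called in 2 or more libraries were Gm36884, Vps41, Zfp346, Gm34246, Zfyve16, Nufip1, Tsc22d1, Snapc3 and Oprd1.

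Peak density on the 4 chromosomes was below that of the other 15 autosomes in 5 of 6 libraries. LysM-Cre replicate 1 had 5.24 peaks per Mb on the 4 chromosomes and 8.21 on the other autosomes, replicate 2 had 8.44 and 13.5, and replicate 3 had 2.63 and 9.80. Trem2-MKO replicate 1 had 8.93 and 13.4, and replicate 2 had 1.47 and 3.22. Trem2-MKO replicate 3 went the other way, with 2.20 and 1.85. The 4 chromosomes make up 21.6% of the autosomal span and held 14.95%, 14.7% and 6.88% of the autosomal peaks of the LysM-Cre libraries. The corresponding shares for Trem2-MKO were 15.5%, 11.1% and 24.7%. LysM-Cre replicate 3 was therefore the sparsest library here although it was not the smallest, and Trem2-MKO replicate 3, the smallest list, was the only one above its share of the span.

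The ratio of the density on the 4 chromosomes to that on the other autosomes was 0.638, 0.626 and 0.268 in the LysM-Cre libraries and 0.668, 0.455 and 1.19 in the Trem2-MKO libraries. The means were 0.511 ± 0.210 (SD, n = 3) and 0.771 ± 0.378 (SD, n = 3), and the groups overlapped (exact two-sided permutation test over 20 assignments, p = 0.4, where the smallest possible p is 0.1). Without Trem2-MKO replicate 3 the difference, LysM-Cre minus Trem2-MKO, moved from -0.26 to -0.051 (exact two-sided permutation test, p = 0.8). Fewer copies of a chromosome and less mark per copy cannot be told apart in these lists.

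On each of the 4 chromosomes LysM-Cre replicate 3 had the lowest ratio, Trem2-MKO replicate 2 the next and Trem2-MKO replicate 3 the highest. On chromosome 4 the ratio to the other autosomes ranged from 0.254 in LysM-Cre replicate 3 to 1.17 in Trem2-MKO replicate 3, with a mean of 0.628. Chromosome 10 had a mean of 0.613, from 0.243 to 1.09. Chromosome 14 had a mean of 0.641, from 0.232 to 1.38. Chromosome 13 was the least sparse of the 4 with a mean of 0.690, from 0.352 to 1.12. Just outside the choice, chromosome 16 had a mean of 0.677, below that of chromosome 13, and chromosomes 7 and 6 had 0.711 and 0.777. The same order of libraries was seen there, so it is not particular to the 4 chromosomes. Chromosome 16 had 0.277 in LysM-Cre replicate 3, 0.517 in Trem2-MKO replicate 2 and 1.30 in Trem2-MKO replicate 3. Chromosome 6 had 0.594, 0.606 and 1.14 in these libraries. Chromosome 7 had 0.572, 0.587 and 0.866, and so stayed below 1 in Trem2-MKO replicate 3. At the other end, chromosome 3 had a mean of 1.57. The chosen chromosomes carry 7.07 to 8.67 protein-coding genes per Mb, chromosome 16 carries 7.16, chromosome 15 carries 7.70 and chromosome 3 carries 6.27.

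**Figure D1:**
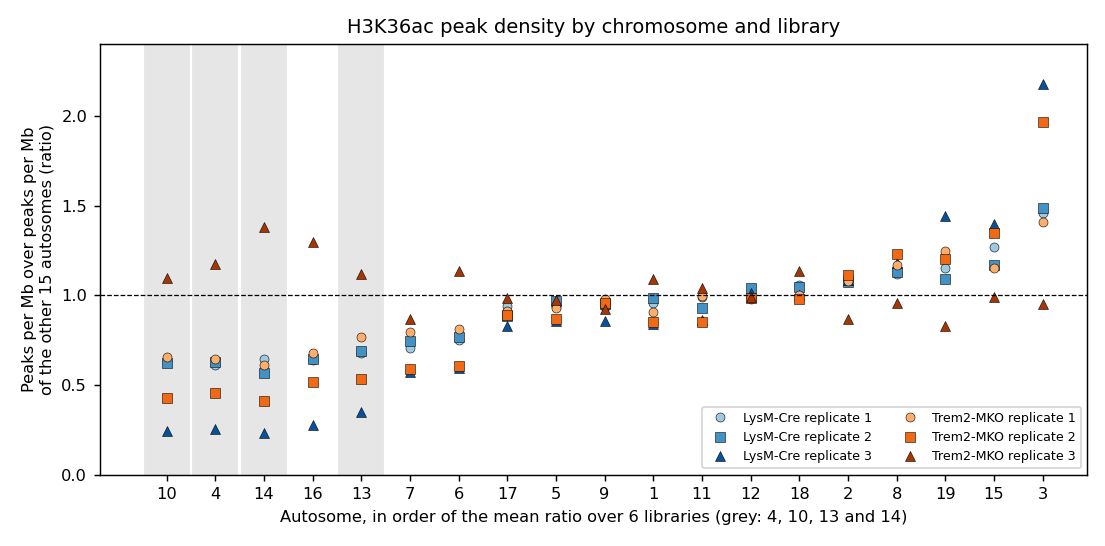
Peaks per Mb of each autosome divided by peaks per Mb of the 15 autosomes other than 4, 10, 13 and 14 in the same library (vertical axis, ratio), with autosomes ordered by their mean and 1 point per library. Trem2-MKO replicate 3 lies between 1.09 and 1.38 on the 4 chromosomes shaded grey, where the other libraries lie between 0.232 and 0.769. On chromosome 16, not shaded, it lies at 1.30 and the other libraries between 0.277 and 0.681.

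The peaks that were called on the 4 chromosomes had nearly the same median fold over background as those elsewhere in their lists. Their median fold over background was 3.22, 2.97 and 3.25 in the LysM-Cre libraries and 3.05, 2.63 and 2.68 in the Trem2-MKO libraries. It equalled the median of the other autosomes of the same list in 5 libraries and differed by -0.052 in LysM-Cre replicate 2. Most peaks of a list share 1 background and have whole fragment numbers, so fold takes few values and equal medians do not show equal strength. The median −log10 p was 4.60, 4.16 and 4.38 in LysM-Cre, against 4.34, 4.44 and 4.38 on the other autosomes. In Trem2-MKO it was 4.44, 4.61 and 4.35 against 4.40, 4.57 and 4.32. Between genotypes the medians were 3.15 ± 0.151 and 2.79 ± 0.232 (SD, n = 3 each; exact two-sided permutation test, p = 0.2). The lowest background of each list was 2.42, 2.7 and 2.39 in LysM-Cre and 2.6, 5.92 and 5.92 in Trem2-MKO. At a given p limit a higher background admits lower folds, so genotype and background cannot be told apart in this difference. The 3 highest folds were 7.02 in LysM-Cre replicate 2 (chr14:54561106-54561528, 5.94 kb from Ajuba, which encodes a scaffold protein of cell junctions), 6.73 in LysM-Cre replicate 1 (chr10:15603178-15603710, 832 kb from Nmbr) and 6.66 in Trem2-MKO replicate 1 (chr10:48045495-48045954, 1048 kb from Grik2). Next came 6.33 in LysM-Cre replicate 1 (chr4:115657301-115657740, 9.58 kb from Cyp4b1, a cytochrome P450) and 6.20 in LysM-Cre replicate 3 (chr4:150610587-150611140, in the body of Rere, a transcriptional corepressor). The peaks near Ajuba and in Rere were each called in 1 further library and the other 3 in none.

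Local background did differ. The background against which a peak was called has a lowest possible value in each list, and it was recovered together with the summit fragments. The share of peaks called at that lowest value on the 4 chromosomes was 76.9%, 77.5% and 71.8% in the LysM-Cre libraries, against 63.6%, 66.6% and 57.2% on the other autosomes. For the Trem2-MKO libraries it was 64.6%, 63.9% and 67.4% against 58.9%, 62.1% and 64.5%. The 4 chromosomes were higher in 6 of 6 libraries. With a −log10 p of 5 or more it was 5 of 6, with a difference of -1.55 percentage points in Trem2-MKO replicate 2, and with a −log10 q of 2 or more 5 of 6, with -4.11 in Trem2-MKO replicate 3. Of the chromosomes outside the choice, chromosome 16 had 76.9%, 78.0% and 68.1% in LysM-Cre and 65.1%, 58.9% and 69.3% in Trem2-MKO, and chromosome 6 had 74.6%, 74.7% and 70.1% in LysM-Cre and 64.1%, 68.2% and 69.2% in Trem2-MKO. The excess averaged 12.9 ± 1.84 percentage points in LysM-Cre and 3.47 ± 1.95 in Trem2-MKO (SD, n = 3 each), and the groups did not overlap (exact two-sided permutation test, p = 0.1, the smallest the design allows). This measure was chosen after the lists were seen. The excess was smallest, 1.87 and 2.89 percentage points, in Trem2-MKO replicates 2 and 3, whose lowest background was 5.92. Trem2-MKO replicate 1, at 2.6, had 5.64, and the LysM-Cre libraries, at 2.39 to 2.7, had 10.9 to 14.6. In Trem2-MKO replicates 2 and 3, genotype and level of background cannot be told apart. The excess in Trem2-MKO replicate 3, where density was not low, was within the range of its group. The lists were called against a pooled control, per the names of the lists, so this background comes from the control, from the lowest level set for the list, or from both, and which of them was not tested.

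**Figure D2:**
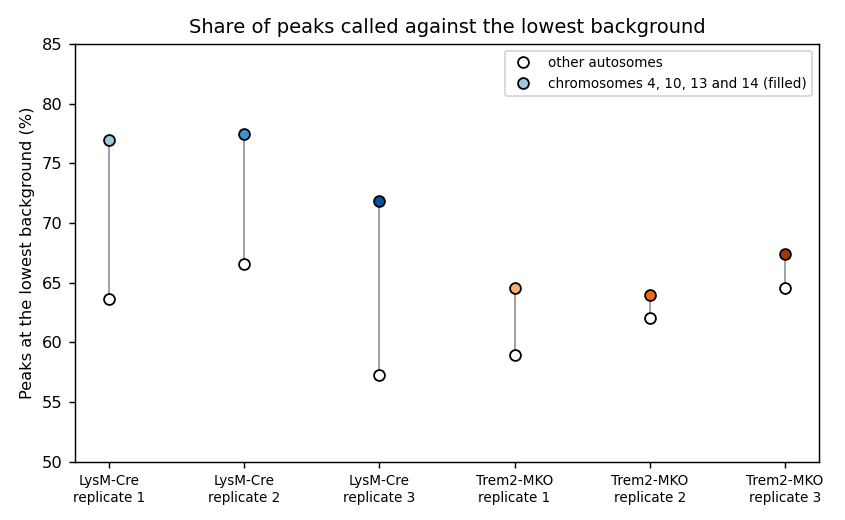
Percentage of peaks called at the lowest background of their list (vertical axis, from 50 to 85%), for chromosomes 4, 10, 13 and 14 (filled) and the other autosomes (open), 1 pair of points per library. The filled point is above the open one in 6 of 6 libraries, by 1.87 to 14.6 percentage points, and the 3 largest gaps are in LysM-Cre.

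Along the chromosomes, density was described in 102 bins of 5 Mb, each set against the median bin of the other autosomes in the same library. That median bin held 40, 65 and 44 peaks in the LysM-Cre libraries. It held 65, 15 and 9 in the Trem2-MKO libraries, so counting error is large in the last 2. A count of 40 has an exact 95% Poisson interval of 28.6 to 54.5, or 0.714 to 1.36 of itself, and a count of 9 one of 4.12 to 17.1, or 0.457 to 1.90. These intervals cover counting error only. The relative density over the 102 bins had a lowest value, median and highest value of 0.2, 0.65 and 1.05 in LysM-Cre replicate 1, 0.185, 0.631 and 0.969 in replicate 2 and 0, 0.295 and 0.75 in replicate 3. In Trem2-MKO the same values were 0.108, 0.692 and 1.17 in replicate 1, 0.2, 0.467 and 0.933 in replicate 2 and 0.333, 1.11 and 2.78 in replicate 3. The deficit was therefore spread over whole chromosomes and not confined to a few gaps in the 5 libraries other than Trem2-MKO replicate 3. The number of the 102 bins below 0.5 was 14, 6 and 96 in LysM-Cre and 10, 56 and 2 in Trem2-MKO. In the 370 bins of the other autosomes it was 7, 6 and 28 in LysM-Cre and 6, 33 and 53 in Trem2-MKO.

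By the mean over the 6 libraries, 8 bins were sparse (below 0.5), 27 kept their density (0.75 or more) and 67 lay between. Without Trem2-MKO replicate 3 the counts were 22 sparse, 4 keeping and 76 between. On the other autosomes, 4 of 370 bins were sparse and 326 kept their density. The mean over libraries ranged from 0.249 to 1.06 over the 102 bins. Bins classed in 1 genotype were then read in the other. In the 29 bins sparse by the LysM-Cre libraries, the Trem2-MKO libraries had 0.587, 0.411 and 1.05 of the median bin. In the 5 bins sparse by the Trem2-MKO libraries, the LysM-Cre libraries had 0.465, 0.532 and 0.159. The 2 sets shared 4 bins, which is 13.8% of the first and 80% of the second. Without Trem2-MKO replicate 3, 23 bins were sparse by Trem2-MKO and 16 were shared, which is 55.2% of the LysM-Cre set and 69.6% of the other. The density in sparse bins relative to keeping bins was 0.579, 0.687 and 0.461 in LysM-Cre and 0.565, 0.706 and 0.321 in Trem2-MKO (means 0.576 ± 0.113 and 0.530 ± 0.195, SD, n = 3 each). The bins were classed on these same libraries, so no p is given. The difference, LysM-Cre minus Trem2-MKO, was -0.11 with bins classed on LysM-Cre and 0.18 with bins classed on Trem2-MKO.

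**Figure D3:**
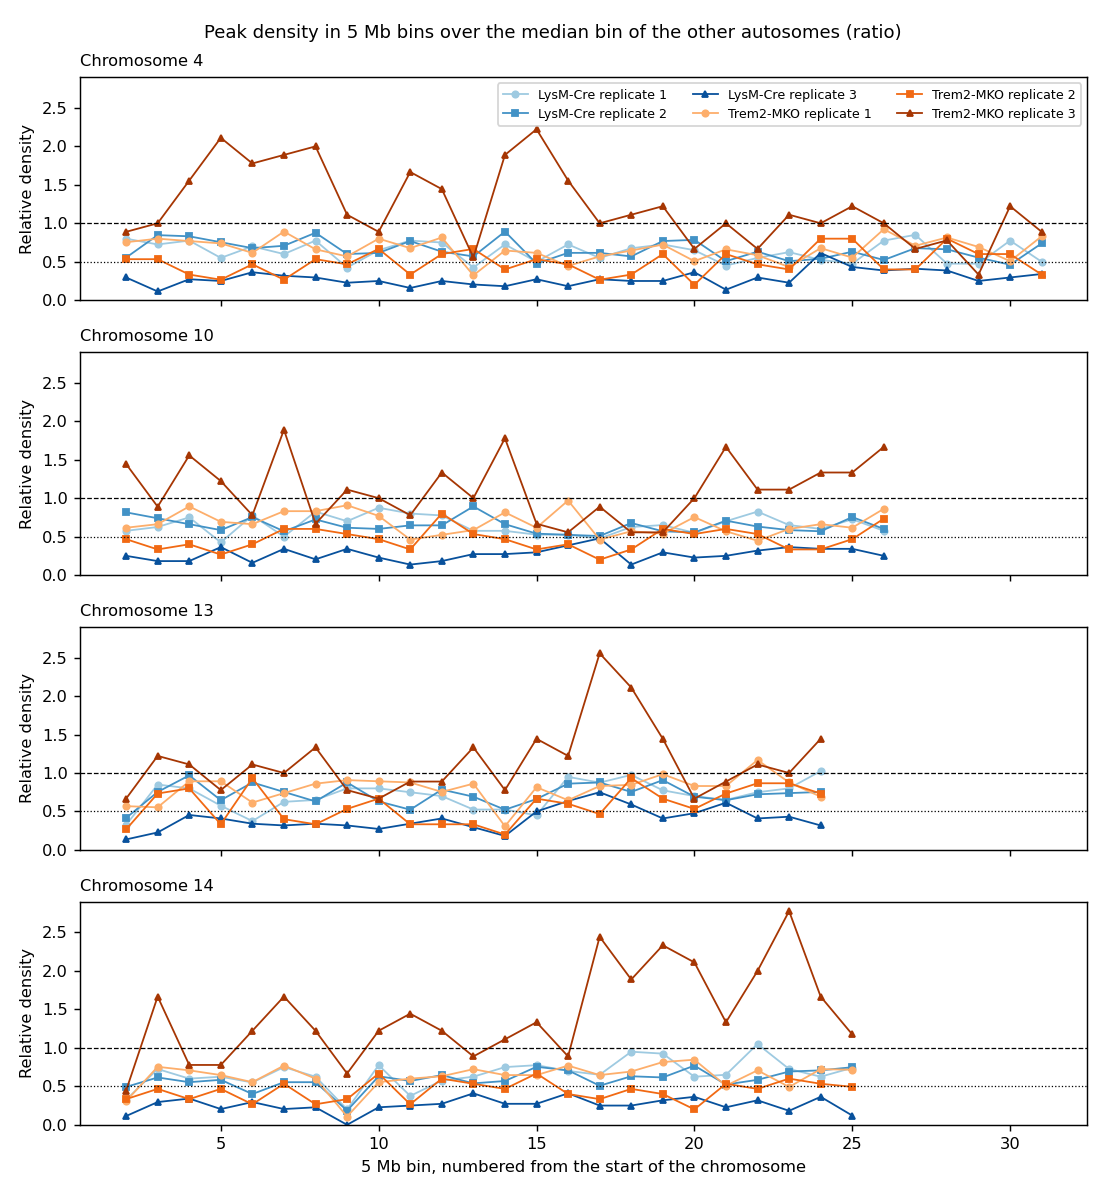
Relative peak density (vertical axis, ratio to the median bin of the other autosomes) in consecutive 5 Mb bins of each chromosome, 1 line per library. Dashed lines mark 1 and dotted lines 0.5. LysM-Cre replicate 3 stays at or below 0.75 in every bin, and Trem2-MKO replicate 3 reaches 2.78 on chromosome 14.

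Of the 8 sparse bins, 5 held large clusters of related or unnamed genes. The bin at 40 to 45 Mb of chromosome 14 had the lowest mean, 0.249, with relative densities of 0.2, 0.185 and 0 in LysM-Cre and 0.108, 0.333 and 0.667 in Trem2-MKO. The 0 in LysM-Cre replicate 3 stands for no peak in the bin and allows up to 0.068. All 6 libraries were below 1 there. Of its 62 genes, 41 carry only Gm or LOC names, and the others include Mat1a, which makes the methyl donor S-adenosylmethionine in liver, and Mbl1, a mannose-binding lectin. The bin at 5 to 10 Mb of chromosome 14 had 0.336, and 44 of its 58 genes carry Gm or LOC names. On chromosome 13, 65 to 70 Mb had 0.419, with 25 zinc finger genes (Zfp) among 61 genes. On chromosome 4, 60 to 65 Mb had 0.457, with 23 genes of the major urinary proteins (Mup), which hepatocytes secrete, among 53. Also on chromosome 4, 140 to 145 Mb had 0.484, with 23 Pramel and Oog genes, which are germ cell genes, among 80. Duplicated families such as these can lose reads that map to several copies, and how the lists treated such reads is not given in the sources used here. Its part in these bins was not tested.

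The other 3 sparse bins held none of the Zfp, Mup, Pramel or Oog genes. The bin at 5 to 10 Mb of chromosome 13 had a mean of 0.397 and 11 genes, among them Klf6, Pfkp and Adarb2. The bin at 85 to 90 Mb of chromosome 10 had 0.483 and includes Timp3 and Igf1. Igf1 encodes a growth factor secreted by the liver. The bin at 70 to 75 Mb of chromosome 10 had 0.496 and 14 genes.

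The 5 longest stretches without a summit in any library were on chromosomes 14 and 4, in the same families. The longest ran for 2105 kb on chromosome 14 (41148031 to 43252831) and spans 29 genes, from Mbl1 and Sftpd through a run of Gm genes. The second ran for 1690 kb on chromosome 4 (59988523 to 61678734) and spans 17 genes, all of the Mup family. The next 3, of 1622, 1621 and 1438 kb on chromosome 14, span 23, 31 and 22 genes. The last of them includes the eosinophil-associated ribonucleases Ear1, Ear2 and Ear10.

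No run of 2 or more sparse bins was found with all 6 libraries. Runs of 2 or more bins that kept their density were found at 15 to 40 and 65 to 75 Mb of chromosome 4, 70 to 95 and 105 to 120 Mb of chromosome 13, and 80 to 100 and 105 to 120 Mb of chromosome 14. Chromosome 10 had none. The runs on chromosomes 4 and 14 rest on Trem2-MKO replicate 3, which had 1.87 and 2.06 of the median bin in those of chromosome 4 and 2.19 and 2.15 in those of chromosome 14. Without it their means were 0.572, 0.524, 0.563 and 0.585. The 80 to 100 Mb run of chromosome 14 holds 14 genes and the 105 to 120 Mb run 20.

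The distal segment of chromosome 13 was denser than the rest in all 6 libraries. From 70 to 120 Mb the relative density was 0.795, 0.762 and 0.514 in LysM-Cre and 0.852, 0.707 and 1.39 in Trem2-MKO. From 5 to 70 Mb it was 0.638, 0.698 and 0.311 in LysM-Cre and 0.748, 0.477 and 0.966 in Trem2-MKO. On chromosome 14, 105 to 120 Mb was denser than 5 to 80 Mb in all 6 libraries, with 0.8, 0.662 and 0.288 against 0.598, 0.557 and 0.253 in LysM-Cre and 0.641, 0.533 and 2.15 against 0.601, 0.44 and 1.10 in Trem2-MKO. Its run at 80 to 100 Mb was denser than 5 to 80 Mb except in Trem2-MKO replicate 2, which had 0.35 against 0.44. These borders were set after the profiles were seen, so no test was run. The run at 70 to 95 Mb of chromosome 13 had a mean of 0.907 and 98 genes, and the mean was 0.737 without Trem2-MKO replicate 3. Within it, 80 to 90 Mb was the only run of keeping bins left without that library, with 0.925, 0.815 and 0.670 in LysM-Cre and 0.838 and 0.7 in Trem2-MKO replicates 1 and 2. It holds 15 genes, among them the tumour suppressors Rasa1 and Xrcc4. Without Trem2-MKO replicate 3, runs of sparse bins appeared at 70 to 90 Mb of chromosome 4 (mean 0.479), 80 to 90 Mb of chromosome 10 (0.446) and 35 to 45 Mb of chromosome 14 (0.310).

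LysM-Cre replicate 3 showed a step on chromosome 4. It had a relative density of 0.247 from 5 to 115 Mb and 0.389 from 115 to 155 Mb. In the same stretches LysM-Cre replicates 1 and 2 had 0.642 and 0.673, then 0.606 and 0.598, and the Trem2-MKO libraries had 0.648, 0.452 and 1.33, then 0.713, 0.592 and 0.889. This border too was set after the profile was seen.

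The genotypes did not overlap in 11 of the 102 bins, all with higher relative density in Trem2-MKO. That is 10.8% of the bins, against 6.14% of all 472 autosomal bins with Trem2-MKO higher and 2.12% with LysM-Cre higher. No bin of the 4 chromosomes had LysM-Cre higher in every library. Without Trem2-MKO replicate 3 the counts were 12 with Trem2-MKO higher and 1 with LysM-Cre higher of 102, and 46 and 30 of 472. The 11 bins included 105 to 110 Mb of chromosome 13, with 0.75, 0.723 and 0.409 in LysM-Cre and 1.17, 0.867 and 1.11 in Trem2-MKO. They also included 30 to 35 Mb of chromosome 10, which holds Zup1, with 0.5, 0.569 and 0.341 in LysM-Cre and 0.831, 0.6 and 1.89 in Trem2-MKO.

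Few positions were called in more than 1 library. Merging peaks that overlap by at least 1 base gave 14436 regions on the 4 chromosomes, of which 13940 came from 1 library, 456 from 2, 36 from 3 and 4 from 4, with 0 in 5 or 6. The share in 3 or more libraries was 0.277%, against 0.316% over all chromosomes, and the share in 2 or more was 3.44%, against 4.60% on the other autosomes. The share of a library's own regions that another library also held was 7.04%, 6.08% and 8.66% in LysM-Cre and 4.82%, 12.1% and 12.8% in Trem2-MKO. Each was lower than on the other autosomes of that library, where the shares were 9.97%, 8.06% and 9.55% in LysM-Cre and 7.11%, 13.8% and 16.8% in Trem2-MKO. The pair that shared most regions, LysM-Cre replicates 1 and 2, had 84 in common, which is 3.10% of the first list and 1.92% of the second. The share of a library also depends on how dense the other lists are. The 4 chromosomes were selected for low density, so no conclusion is drawn from the lower shares.

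Of the 40 regions in 3 or more libraries, 27 included Trem2-MKO replicate 3 and 34 held both genotypes. They were spread as 11 on chromosome 4, 12 on chromosome 10, 4 on chromosome 13 and 13 on chromosome 14. Of the 40, 11 (27.5%) overlapped a gene body, 4 (10%) lay within 1 kb of a gene end and 17 (42.5%) lay over 100 kb from the nearest gene. The shares over all 14436 regions were 39.7%, 3.53% and 30.4%. The 4 regions called in 4 libraries are described in turn.

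The region chr10:118034436-118034923 lies 107 kb from Mdm1, which encodes a microtubule-binding protein, and had folds of 4.35 and 4.72 in LysM-Cre replicates 1 and 3. Replicates 2 and 3 of Trem2-MKO had 3.67 and 4.05. The region chr4:11288042-11288583 lies in the body of Dpy19l4 and had folds of 4.81 and 4.50 in LysM-Cre replicates 1 and 2. Its folds in replicates 1 and 2 of Trem2-MKO were 4.28 and 2.08. Both genotypes contributed 2 libraries to each of these. The region chr10:79803655-79804126 lies in the body of Palm, which encodes the membrane protein paralemmin, and had folds of 2.78 in LysM-Cre replicate 3 and 2.96, 3.33 and 3.32 in the Trem2-MKO libraries. The region chr4:147530903-147531989 lies 14.8 kb from the zinc finger gene Zfp982 and had folds of 2.93, 2.32 and 3.25 in the LysM-Cre libraries and 2.76 in Trem2-MKO replicate 3.

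Only 2 regions were called in all 3 LysM-Cre libraries and no Trem2-MKO library, and 4 showed the opposite pattern. That is 0.0139% and 0.0277% of the regions of the 4 chromosomes, against 0.0497% and 0.022% over all chromosomes. The LysM-Cre pair were chr10:30890662-30891160, 47.9 kb from Hey2, a target of Notch signalling, with folds of 2.92, 4.53 and 3.42, and chr14:96167904-96169076 in the body of Klhl1, with folds of 3.80, 2.43 and 3.25. The Trem2-MKO set held the start of Zup1 (chr10:33950780-33951310) and 3 regions far from genes. Of these, chr10:124399598-124400482, 658 kb from Tafa2, had folds of 3.88, 3.67 and 3.14. The region chr14:112482666-112483117, 800 kb from Slitrk5, had 3.61, 3.41 and 3.03. The region chr10:16208945-16209777, 1437 kb from Nmbr, had 4.72, 2.32 and 2.15.

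Tumour suppressor genes were examined as a list of 87 names, of which 86 were found among the protein-coding genes of the 4 chromosomes. A peak lay in the gene or within 1 kb of its ends in at least 1 library for 57 of the 86 (66.3%), against 45.4% of all 4009 genes of the 4 chromosomes and 52% of all genes. In 2 or more libraries it was 36 of 86, against a background of 23.8% on the 4 chromosomes and 29.9% overall. Gene length moved with this count. The 57 genes had a median length of 93.1 kb and the 29 without a peak 13.4 kb. Of suppressors under 20 kb, 36.7% (11 of 30) had a peak, against 20.1% of all genes of that length on the 4 chromosomes. From 20 to 100 kb the shares were 70% and 66.5%, from 100 to 300 kb 94.4% and 96.7%, and above 300 kb 100% and 100%. Within 1 kb of a gene end, 13 of 86 suppressors had a peak, against 12.8% of all genes of the 4 chromosomes, and none had one in 2 libraries.

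Read as density, the suppressor genes were not depleted of peaks within the 4 chromosomes in every library. Over their 12.2 Mb they held 4.77, 9.04 and 1.89 peaks per Mb in LysM-Cre and 9.21, 1.81 and 1.81 in Trem2-MKO. The 4 chromosomes as a whole held 5.24, 8.44 and 2.63 in LysM-Cre and 8.93, 1.47 and 2.20 in Trem2-MKO. The suppressors were lower in LysM-Cre replicates 1 and 3 and Trem2-MKO replicate 3 and higher in the other 3 libraries.

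Of the 86, 4 lay in sparse bins, 67 in intermediate bins, 14 in bins that kept their density and 1 outside the bins used. Without Trem2-MKO replicate 3, 15 lay in sparse bins and 2 in keeping bins. Of the 102 bins themselves, 8 were sparse with all libraries and 22 without that library. The 8 sparse bins held 62, 58, 11, 61, 53, 48, 80 and 14 of the 4009 genes of the 4 chromosomes. No excess or lack of suppressors in sparse bins is read from these counts. The 4 in sparse bins were Klf6, Timp3, Prdm2 and Sdhb. Klf6, a zinc finger transcription factor, had no peak in any library, and the nearest summit was 29.8 kb away. Sdhb, a subunit of succinate dehydrogenase, also had none, with the nearest summit at 21.8 kb. Timp3, an inhibitor of matrix metalloproteinases, had 1 peak of fold 2.43 in LysM-Cre replicate 2. Prdm2, a histone methyltransferase, had 1 peak of fold 3.22 in LysM-Cre replicate 1.

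The bins next in order held 7 more. Stk11, the kinase LKB1 that activates AMPK, had no peak and its nearest summit was at 9.35 kb. Tcf3, a transcription factor of lymphocyte development, had none within 13.99 kb, and Cdkn2c, an inhibitor of cyclin-dependent kinases, none within 17.4 kb. Gadd45b, a stress sensor, had a peak of fold 3.37 and Apaf1, the scaffold of the apoptosome, one of fold 3.24, both in LysM-Cre replicate 2 alone. Usp44 lies in the same bin as Apaf1 and had a peak of fold 3.80 in LysM-Cre replicate 1. Faf1, a Fas-associated factor of 287 kb, had 3, 5 and 2 peaks in LysM-Cre and 1, 0 and 0 in Trem2-MKO. Of these 11 genes, 5 had no peak, 5 had 1 peak in 1 library and Faf1 had peaks in 4 libraries.

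Genes called in all 6 libraries were long. Ptprd, a receptor tyrosine phosphatase gene of 2271 kb on chromosome 4, had 8, 18 and 4 peaks in LysM-Cre and 13, 7 and 3 in Trem2-MKO. Fhit, of 1612 kb on chromosome 14, which spans a fragile site, had 11, 9 and 2 in LysM-Cre and 15, 3 and 5 in Trem2-MKO. Rarb, a retinoic acid receptor gene of 651 kb, had 3, 6 and 3 in LysM-Cre and 5, 2 and 1 in Trem2-MKO. Xrcc4, a DNA end-joining factor of 241 kb in the 85 to 90 Mb bin of chromosome 13, had 2, 4 and 2 in LysM-Cre and 3, 1 and 1 in Trem2-MKO. The counts of the genotypes overlapped in all 4.

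Another 3 suppressors were called in 5 libraries, 6 in 4, 9 in 3 and 14 in 2. Camta1 had 1, 6 and 1 peaks in LysM-Cre and 9, 0 and 1 in Trem2-MKO. Bach2, a repressor of lymphocyte differentiation, had 2, 2 and 0 in LysM-Cre and 5, 1 and 2 in Trem2-MKO. Dach1 had 3, 4 and 0 in LysM-Cre and 7, 1 and 2 in Trem2-MKO. Those in 4 libraries were Faf1, Thrb, Jarid2, Tet1, Ptprk and Ebf2. Tet1, a methylcytosine dioxygenase, was among the shorter at 82.9 kb, with 0, 1 and 0 peaks in LysM-Cre and 1, 1 and 1 in Trem2-MKO. Those in 3 libraries were Hace1, Prdm1, Bmpr1a, Msh3, Ptch1, Socs2, Foxo3, Pax5 and Rb1. Rb1, the retinoblastoma regulator of the cell cycle, had 0, 2 and 0 in LysM-Cre and 2, 0 and 1 in Trem2-MKO. Those in 2 libraries were Epha7, Tgfbr1, Runx3, Kif1b, Akap12, Sash1, Trp73, Dapk1, Pik3r1, Map3k1, Lats2, Pbrm1, Fancc and Pcdh17. By genotype, 33 of the 57 genes had a peak in both, 16 (28.1%) in LysM-Cre alone and 8 in Trem2-MKO alone. Of all 1822 genes of the 4 chromosomes with a peak, 787 had one in both, 616 (33.8%) in LysM-Cre alone and 419 in Trem2-MKO alone.

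Of the 29 suppressors without a peak, 8 lay within 5 kb of a summit and 4 lay over 20 kb from one. The following were picked after their values were seen, for what they are known for. Cdkn2a and Cdkn2b, neighbouring inhibitors of the cell cycle, had their nearest summits at 8.04 and 3.63 kb. Mtap beside them, a methionine salvage enzyme often lost together with them, had its nearest at 32.5 kb. Their bin had a mean relative density of 0.597, or 0.495 without Trem2-MKO replicate 3, which made it a sparse bin. Bap1, a deubiquitinase of histone H2A, had its nearest summit at 12.3 kb. Arid5b was the longest without a peak, at 187 kb, where 96.7% of genes of 100 to 300 kb on the 4 chromosomes had one.

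**Figure D4:**
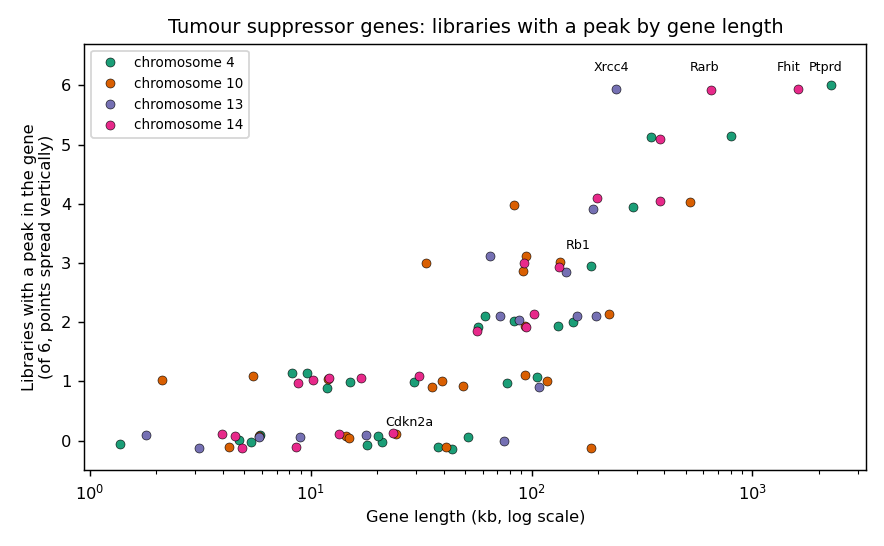
Number of libraries of 6 with a peak in the gene or within 1 kb of its ends (vertical axis, points spread slightly) against gene length in kb (horizontal axis, log scale) for 86 tumour suppressor genes, coloured by chromosome. The 4 genes called in 6 libraries are 241 to 2271 kb long, and the 29 without a peak have a median of 13.4 kb.

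Other gene lists on the 4 chromosomes were read against the 45.4% of all genes there with a peak in at least 1 library and the 23.8% with one in 2 or more. Of oncogenes, 9 of 19 (47.4%) had a peak in at least 1 library and 5 in 2 or more. Of hepatocyte genes it was 9 of 39 (23.1%) and 3, of macrophage and granulocyte genes 6 of 21 (28.6%) and 2, and of T, NK and B cell genes 6 of 22 (27.3%) and 2. Their median lengths were 22.8, 15.1, 5.68 and 7.27 kb, below the 50.3 kb of the suppressors. Of all genes of the 4 chromosomes, 20.1% of those under 20 kb and 66.5% of those from 20 to 100 kb had a peak. The 45.4% is therefore not matched to these lists for length. Genes with a peak in 2 or more libraries were Lyn, Hdac1, Lin28b, Ros1 and Dek among oncogenes, Cyp4a14, Fbp1 and Gulo among hepatocyte genes, Csf3r and Itgb2 among macrophage and granulocyte genes, and Pax5 and Prdm1 among lymphocyte genes. Csf3r, the granulocyte colony-stimulating factor receptor, and Itgb2, an integrin of leukocytes, each had 1 peak in LysM-Cre replicates 1 and 2 and none in Trem2-MKO. The hepatocyte genes Cyp4a14, which hydroxylates fatty acids, and Gulo, which makes ascorbate, were also called in LysM-Cre replicates 1 and 2 alone. The macrophage and granulocyte list had a peak in 4, 3 and 0 genes in LysM-Cre and 1, 0 and 0 in Trem2-MKO. Of all 1822 genes of the 4 chromosomes with a peak, 616 had one in LysM-Cre alone and 419 in Trem2-MKO alone. The libraries with 0 genes had the fewest peaks there, 1362 in LysM-Cre replicate 3 and 760 and 1142 in Trem2-MKO replicates 2 and 3. Trem2-MKO replicate 1, with 1 gene, C1qc at a fold of 4.11, had the most, 4625. The T, NK and B cell list had a peak in 0, 3 and 1 genes in LysM-Cre and 4, 1 and 1 in Trem2-MKO. For hepatocyte genes it was 3, 3 and 1 against 4, 1 and 0, and for oncogenes 5, 3 and 0 against 5, 2 and 0. A genotype difference in these lists was not tested. With 1 or 2 libraries a gene, these calls are a description.

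Peaks near gene ends were few in both genotypes. Within 1 kb of either end of a protein-coding gene lay 3.46%, 3.80% and 5.87% of the peaks of the 4 chromosomes in LysM-Cre and 2.70%, 4.87% and 3.59% in Trem2-MKO. The means were 4.38 ± 1.31% and 3.72 ± 1.09% (SD, n = 3 each), and the groups overlapped (exact two-sided permutation test, p = 0.6). Without LysM-Cre replicate 3 the difference, LysM-Cre minus Trem2-MKO, turned from 0.656 to -0.092 percentage points. On the other autosomes the share ran from 3.07% to 4.62%. Gene bodies held 34.6% to 43.6% of the peaks of the 4 chromosomes and 35.95% to 42.1% of those of the other autosomes.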

How the data were processed

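H3K36ac was profiled by chromatin immunoprecipitation and sequencing, with whole-genome amplification before library preparation per the labels' protocols. The submitters' processing notes list, without versions, MACS2 and deepTools, the aligner Bowtie2, Trimmomatic, Picard and SAMtools, and the build mm10. The deposited lists, 1 per library, carry names that record removed duplicates, a pooled control, a p limit of 0.01 and a cap of 500000 peaks. Each deposited row has a score, a summit offset, a fold over background (a ratio) and the p-value and q-value, both as −log10. Read totals are not given in the sources used here, so depth is given as peaks per list and fragments per summit.

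Summit fragments and background were solved from the authors' fold and p-value, to within 0.005 for 100% of peaks, with a pileup scale of 0.903 in replicate 2 of Trem2-MKO, 0.798 in its replicate 3 and 1 elsewhere. A background within 0.02 of the list's lowest was counted as lowest. Summits were counted in 5 Mb bins (at least 2.5 Mb long) with Python 3.11.15, pandas 2.3.3, NumPy 2.4.6 and SciPy 1.17.1, and scripts were tested on simulated data. Genes were protein-coding entries of RefSeq GRCm38.p6, without strand, and starts came from its promoter table. Genotypes were compared over 3 against 3 libraries by exact two-sided permutation of the group means. Named were all runs of bins, suppressors in the 10 lowest places or with a peak in 2 or more libraries, other listed genes with 2 or more, regions in 4 or more libraries, regions in 3 of 3 against 0 of 3, the 5 highest folds and the 5 longest gaps. Alternatives covered stricter p and q limits, equal list lengths, bin sizes, thresholds, window sizes, denominators, left-out libraries and pairing by replicate number. The chromosomes and lists were chosen with earlier results of these data known.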

Additional observations from a re-analysis of the deposited data

How the results depend on the processing

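Of 120 alternative values, 79 kept their direction (or, for counts, stayed within 1.5 times), 6 reversed and 35 counts moved by more. For these the cause was not tested, except that stricter limits leave fewer peaks. The density ratio, the median fold and the excess at the lowest background kept their direction in all of theirs. The gene-end difference (0.656 points) became -0.33 with a −log10 p of 5 or more, -1.26 with a −log10 q of 2 or more and -0.092 without LysM-Cre replicate 3 (range -0.092 to 1.23 with a library left out). The sparse-bin difference (0.045) became -0.11 with bins classed on LysM-Cre, -0.012 with the median over libraries (chosen after seeing the data) and -0.067 with sparse below 0.4. Sparse bins (8) numbered 18 at −log10 p of 5, 26 at −log10 q of 2, 4 and 31 with 10 and 2 Mb bins, 3 and 27 with limits of 0.4 and 0.6, and 4 to 22 with a library left out. Suppressors in sparse bins (4) numbered 17, 26, 16 with 2 Mb bins, 7 by the median, 1 and 24 at 0.4 and 0.6, and 1 to 15 with a library left out. Lowest were counts without LysM-Cre replicate 3 and highest without Trem2-MKO replicate 3. Regions in 3 or more libraries (40) numbered 13 at −log10 p of 5, 9 at −log10 q of 2, 12 with equal list lengths, and 16 to 28 with a library left out. Regions in LysM-Cre alone (2) numbered 1 under each of these 3 limits and 2 to 79 with a library left out, those in Trem2-MKO alone (4) numbered 1 at −log10 q of 2, 2 with equal list lengths and 4 to 40, since 2 libraries then suffice. Blocking by replicate number left the differences at -0.26, 0.045, 0.359, 0.656 and 9.46, in the order density ratio, sparse bins, fold, gene ends and lowest background, with exact sign-flip p, sparse bins left out, of 0.75, 0.25, 0.75 and 0.25, where 0.25 is the smallest possible. Deviations of same-numbered libraries over 102 bins correlated at -0.17, 0.016 and -0.17, so the numbers were not taken to pair the mice.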
